A study of Mus musculus with 4 samples.

Results

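The 7 genes described here make, load and switch on the MHC class II complex: H2-Aa, H2-Ab1, H2-Eb1, Cd74, Ciita, H2-DMa and H2-DMb1. They were chosen by symbol from the 27999 genes listed in each of 4 single-cell count matrices, and each symbol was found once in every matrix. The cells came from the back skin dermis of C57BL/6J mice, and RNA was counted as unique molecular identifiers (UMIs) with the 10x 3' method. The older libraries were an 18-month library made with chemistry v2 (18mo v2) and a 12-month library made with chemistry v3 (12mo v3). Each was set against the 2-month library of its own chemistry (2mo v2 and 2mo v3). Each sample had n = 2 mice per the labels, which do not say whether the animals were pooled, so p-values speak for the spread between these libraries. All mice carried the α-SMACreERT2 driver, in which an α-smooth muscle actin promoter controls an inducible Cre, and received 4-OHT on postnatal days 3 and 4. The reporter was RosaYFP in both v2 libraries and, per the sample characteristics, RosaTDTomato in both v3 libraries. The protocol text of the v3 samples names the YFP reporter instead, and the characteristics were followed here. Cells were sorted as positive for the reporter or for Cd26, and in each case for Itga9 or Cd200, and equal numbers from the 2 gates were mixed. No gate selected leukocytes, and a leukocyte could enter only with those surface markers, so shares of immune cells are shares of the sorted material and not of the skin. The submitters' design text counts 12 months as young, whereas here it was counted as older than 2 months.

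The v2 files hold fewer barcodes than the labels report as recovered (2727 against 3776 in 18mo v2, 1906 against 2604 in 2mo v2), and the design text gives numbers for the first samples that differ again. Ages of the v2 files therefore rest on the file assignment alone. The v3 files hold 5474 (12mo v3) and 7023 (2mo v3) barcodes, near the 5415 and 6998 of the labels. Depth ran from 17831300 to 77032628 UMIs per library, and 2431 (18mo v2), 1677 (2mo v2), 3964 (12mo v3) and 5388 (2mo v3) cells were kept, with median depths of 6588, 6260, 11786.5 and 11934 UMIs. The v3 files share 84 barcodes, of which 11 were kept, and the v2 files share 7, all kept. Chemistry, the labelled reporter and, by Xist RNA, the sex of the mice changed together. Ages were therefore compared within a chemistry or with chemistry as a covariate. Levels are given as CPM (counts per 1e6), the share of a gene among all UMIs of the summed cells. Intervals around them cover counting error only. Because the 3' method counts transcript ends, no length was divided out, and levels of different genes were not ranked against each other.

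MHC class II molecules display peptides from the endosomal pathway to CD4+ T cells. H2-Aa and H2-Ab1 encode the alpha and beta chain of the I-A molecule, and H2-Eb1 encodes the beta chain of I-E, whose alpha chain C57BL/6 mice do not make. Cd74, the invariant chain, fills the groove of new class II molecules and guides them to the endosome, where H2-DMa and H2-DMb1, the chains of the H2-DM exchange factor, help peptides replace its remnant. Ciita is the transactivator on which constitutive and interferon-induced class II transcription depends. In skin, Langerhans cells, dermal dendritic cells and part of the macrophages carry class II, while the follicle epithelium and dermal papilla are regarded as sites of low antigen presentation. H2-Aa, H2-Ab1, H2-Eb1 and Cd74 are called the core genes below.

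Class II genes are read from a shared promoter module in which an X box and a Y box sit a few helical turns apart, and Ciita is recruited by the proteins bound there. The RefSeq promoter windows of GRCm38.p6, which run from 250 bases before to 50 bases after a gene's start, held 4 of the 7 members: H2-Aa, H2-Eb1, H2-DMa and H2-DMb1. A core of the X box, CTNGNAAC, and the Y box, TGATTGG, were searched on both strands; the 2 patterns do not overlap and were chosen after these windows had been read. CTNGNAAC occurred in 13.2% and TGATTGG in 7.82% of 32851 windows, and both on the same strand with 10 to 40 bases between them in 28 windows, or 0.0852%. H2-Aa, H2-Eb1 and H2-DMb1 held the pair, with 26, 25 and 26 bases between the boxes, and so did H2-Ob, a modulator of H2-DM, with 23. Neither of the 2 windows of H2-DMa held it, nor did the windows of the class II genes H2-Oa, H2-DMb2 and H2-Eb2. The H2-Eb2 window held both patterns, but not as this pair. A missing pair says only that these letters are not in these windows in that arrangement. The stretches of H2-Aa and H2-Eb1 are printed because they show the pair in front of chains of both class II molecules, I-A and I-E. Capitals mark CTNGNAAC and then TGATTGG, 5′ to 3′ on the gene's own strand. The H2-Aa stretch is chr17:34287847-34287927 on the minus strand, and the H2-Eb1 stretch is chr17:34305753-34305832 on the plus strand.
H2-Aa: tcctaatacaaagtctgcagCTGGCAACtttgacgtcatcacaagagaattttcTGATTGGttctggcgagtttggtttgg
H2-Eb1: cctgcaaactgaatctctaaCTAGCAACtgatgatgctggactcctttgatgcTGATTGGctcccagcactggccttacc

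The genes lie on 3 chromosomes, given here on GRCm38. H2-Aa (ENSMUSG00000036594) lies on chromosome 17 from 34282744 to 34287823 on the minus strand, and H2-Ab1 (ENSMUSG00000073421) on the same chromosome from 34257689 to 34269419 on the plus strand. H2-Eb1 (ENSMUSG00000060586) spans 34305867 to 34316674, H2-DMa (ENSMUSG00000037649) 34119541 to 34139101 and H2-DMb1 (ENSMUSG00000079547) 34153072 to 34160230, all on the plus strand of chromosome 17. Cd74 (ENSMUSG00000024610) lies on chromosome 18 from 60803848 to 60812652 and Ciita (ENSMUSG00000022504) on chromosome 16 from 10480059 to 10528418, both on the plus strand. The annotated H2-DMa span overlaps Brd2 on the other strand, H2-Eb1 overlaps the antisense gene Gm20513 and Ciita overlaps Dexi on the other strand. Whether the counting used strand is not given in the sources used here, so reads of such partners cannot be told apart. H2-DMb1 has the close paralog H2-DMb2, and reads could be split between them.

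Most class II RNA lay in immune-like cells. Cells were clustered without any of the 7 genes or other MHC class II genes, and clusters were named from marker lists that hold no class II gene. Immune-like clusters held 96.9% of all core UMIs in 18mo v2, 94.6% in 2mo v2, 97.7% in 12mo v3 and 87.1% in 2mo v3, although they made up no more than 19.0% of the kept cells of any library. The clusters include mixed-profile barcodes, whose subclusters were named from sheath or papilla markers. Such barcodes alone held 30.5% (18mo v2), 54.9% (2mo v2), 14.1% (12mo v3) and 25.5% (2mo v3) of all core UMIs. Among the named classes, dendritic and Langerhans-like cells had the highest level in every library. Core genes together reached 112076 CPM in 18mo v2, 93667 CPM in 2mo v2, 78362 CPM in 12mo v3 and 72361 CPM in 2mo v3 in these cells.

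The single members followed the same order of classes. H2-Aa stood at 22404 (18mo v2), 18812 (2mo v2), 13168 (12mo v3) and 12300 CPM (2mo v3) in dendritic and Langerhans-like cells, against 11556, 9554, 2588 and 1349 CPM in macrophage-like cells of the same libraries. The partner chain H2-Ab1 stood at 20120, 17705, 11759 and 13035 CPM in dendritic and Langerhans-like cells, against 10049, 9475, 1828 and 1077 CPM in macrophage-like cells. For both chains, no macrophage-like value reached the lowest dendritic and Langerhans-like value, and the gap was wider in v3. H2-Eb1 stood at 14269, 12354, 13120 and 11875 CPM, against 7689, 6025, 2484 and 1092 CPM in macrophage-like cells. Cd74 stood at 55282, 44797, 40315 and 35151 CPM, against 27685, 20889, 7423 and 3731 CPM. These, too, did not overlap between the classes. How many of all genes were likewise apart is not given here, and the test below called 30.8% of genes. H2-DMa stood at 1626, 1711, 834 and 805 CPM, against 914, 604, 202 and 108 CPM in macrophage-like cells, and the v2 macrophage-like cells lay near the v3 dendritic and Langerhans-like ones. H2-DMb1 stood at 987, 912, 985 and 1012 CPM, against 824, 525, 197 and 95.1 CPM. Ciita RNA was scarce everywhere, with 6, 0, 39 and 29 UMIs (5.90, 0, 17.8 and 52.7 CPM) in dendritic and Langerhans-like cells and 1, 1, 10 and 16 UMIs in macrophage-like cells.

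**Figure D1:**
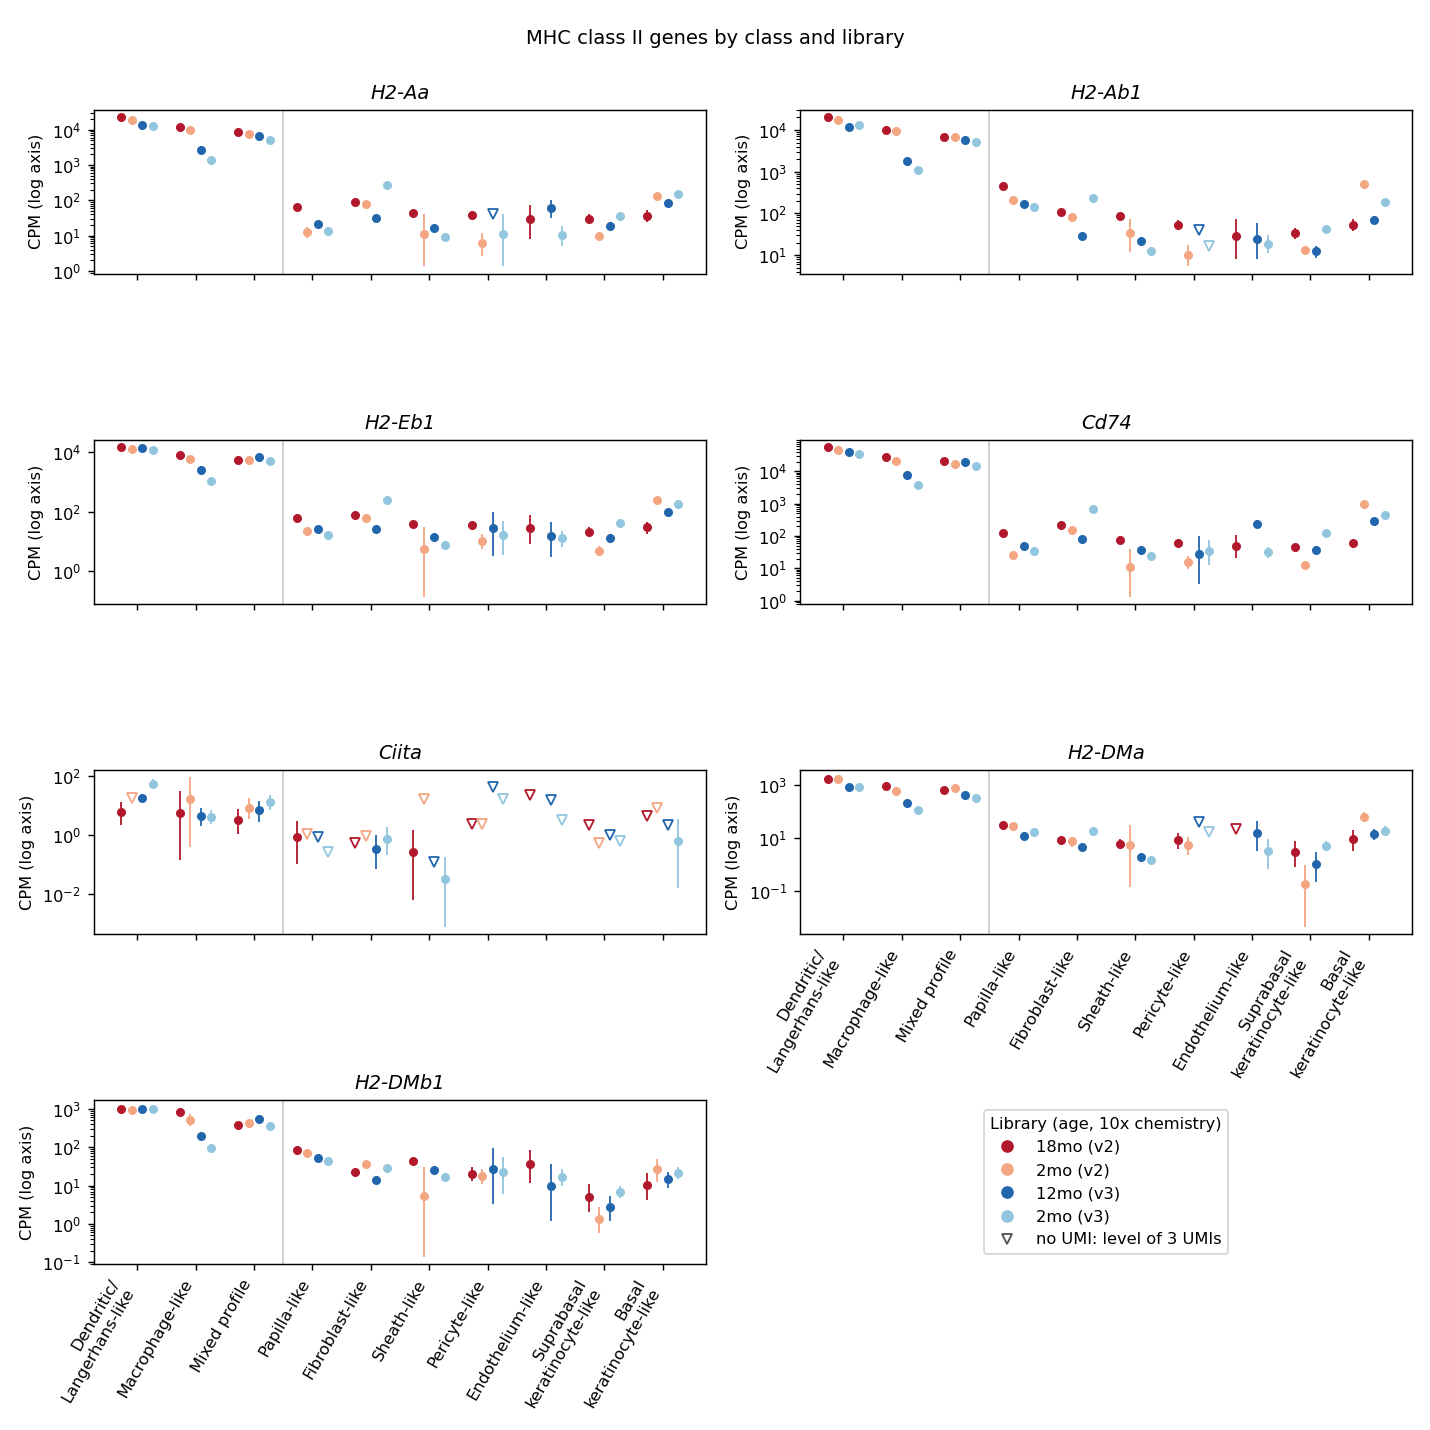
CPM of each member (logarithmic axis) in 10 kinds of cells, one point per library with at least 8 such cells, with Poisson 95% bars; an open triangle marks a class with no UMI, drawn at the level of 3 UMIs. Immune-like classes lie far above the rest for the core genes, and H2-Ab1, H2-DMa and H2-DMb1 lie higher in papilla-like cells than in most other non-immune classes. Fibroblast-like cells of 2mo v3 and basal keratinocyte-like cells of both 2-month libraries are among the exceptions for H2-Ab1 and H2-DMa.

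A test across the libraries gave the same order. In edgeR's quasi-likelihood test with library as a block, 7 of 7 members were higher in dendritic and Langerhans-like than in macrophage-like cells at an adjusted p under 0.05, beside 30.8% of all 8838 genes called in either direction and 17.4% called higher. The 2mo v2 library was not in this fit, because it held only 8 macrophage-like cells. The log2 difference was 2.80 ± 0.31 (SE) for H2-Aa with an adjusted p of 0.000215, 3.08 ± 0.37 for H2-Ab1, 2.89 ± 0.36 for H2-Eb1 and 2.87 ± 0.31 for Cd74. The DM chains differed by 2.57 ± 0.31 (H2-DMa) and 2.67 ± 0.47 (H2-DMb1), and Ciita by 3.39 ± 0.47. Adjusted p-values of the 7 ran from 0.000188 (Cd74) to 0.00254 (H2-DMb1). The fit scales libraries by TMM. With library totals alone the median over all genes moved to -0.64 and 824 of 3942 called genes were higher instead of 1540 of 2722, while all 7 members were still called higher, by 1.93 to 2.82.

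The classes were not the same cells in both chemistries. In v2 most dendritic and Langerhans-like cells (130 of 160 in 18mo v2, 15 of 21 in 2mo v2) fell in a subcluster that took its Langerhans name from Epcam, Cd207 and Il1r2. In v3 most (179 of 233 in 12mo v3, 48 of 67 in 2mo v3) fell in a subcluster named dendritic from Itgax, Ccl22 and Il1b. Cd207, the langerin gene, read 112 and 93.9 CPM in the first subcluster in v2, against 853 and 543 CPM in the subcluster named dendritic in v3, so Cd207 went against both names. A group of 11 cells with 5503 to 22059 CPM of Cd207 stayed unnamed by the rule, and its core genes reached 151945 CPM in 18mo v2 (2 cells), 109398 CPM in 12mo v3 (8 cells) and 67540 CPM in 2mo v3 (1 cell). The third subcluster, with Flt3 and Ccr7, held 28, 6, 52 and 18 cells and 123905, 80450, 97930 and 84614 CPM of core genes in 18mo v2, 2mo v2, 12mo v3 and 2mo v3.

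Macrophage-like cells varied most. In 2mo v3, 288 of 526 macrophage-like cells fell in a subcluster led by Lyve1, a marker of perivascular macrophages, with 2083 CPM of core genes. Another 230 fell in a subcluster led by Cd93, Vcam1 and Ms4a7 with 15047 CPM. In 12mo v3, 63 of 406 cells fell in the Lyve1 subcluster, 198 in the Cd93 subcluster and 145 in a subcluster with Cd209f and Cd209g. Core genes there reached 9132, 24288 and 3445 CPM. In 18mo v2 the same 3 subclusters held 7, 6 and 21 of 34 cells, with 90748, 60422 and 40674 CPM of core genes. The macrophage marker C1qa read 94.5, 1025 and 3964 CPM in them, and Lyve1 0, 0 and 20.8 CPM. Both markers thus went against the name of those 7 cells. The share of cells with at least 10 core UMIs was 85.3% in 18mo v2, 87.5% in 2mo v2, 66.0% in 12mo v3 and 45.6% in 2mo v3, against 100%, 100%, 98.3% and 85.1% in dendritic and Langerhans-like cells. Class II RNA was spread over most dendritic and Langerhans-like cells and over part of the macrophage-like ones.

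Genes that work beside the members split in both directions between these classes. Of 24 measured genes of the class II pathway, 10 were higher and 6 lower in dendritic and Langerhans-like than in macrophage-like cells. The median log2 difference was 0.48, beside -0.03 over all genes. H2-Oa and H2-Ob, which form the modulator of H2-DM, were higher by 5.59 and 5.08 on the log2 scale, and the DM paralog H2-DMb2 by 4.62. Irf4, a transcription factor of dendritic cells, was higher by 3.19, and the costimulatory ligands Cd80 and Cd86 by 2.61 and 2.00. The lysosomal proteases Ctsl, Lgmn, Ctsd and Ctsb were lower by -3.82, -3.01, -2.78 and -2.60. The invariant chain protease Ctss differed by 0.89 (adjusted p = 0.00344), yet on CPM it was lower in both v2 libraries (1691 against 1967 CPM in 18mo v2, 1379 against 1415 CPM in 2mo v2). The thiol reductase Ifi30 was higher by 1.81. Of 10 genes of interferon gamma signalling, 3 were higher (Jak2, Socs1 and Ifngr2), and Cxcl9 and Cxcl10 were among those lower, with a median of -0.38. Of 12 class I genes, 4 were higher and none lower (H2-Q7 1.68, H2-T23 0.96, H2-D1 0.60 and Psmb8 0.58), with a median of -0.01.

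Over all kept cells, every core gene had more RNA in the older library of each chemistry. Core genes together stood at 11009 CPM in 18mo v2 against 3451 CPM in 2mo v2, a ratio of 3.19, and at 5348 CPM in 12mo v3 against 1662 CPM in 2mo v3, a ratio of 3.22. H2-Aa stood at 2211 against 689 CPM (18mo v2 and 2mo v2) and 911 against 288 CPM (12mo v3 and 2mo v3). H2-Ab1 stood at 1992 against 694 and 804 against 302 CPM, H2-Eb1 at 1434 against 481 and 905 against 267 CPM, and Cd74 at 5372 against 1586 and 2728 against 805 CPM, in the same pairs. Within each chemistry the older library was the higher one for all 4 genes. The DM chains moved the same way, H2-DMa with 170 against 71.8 and 63.7 against 23.4 CPM and H2-DMb1 with 131 against 60.6 and 89.2 against 38.1 CPM. Ciita had 20 UMIs against 9 in v2 and 66 against 70 in v3.

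The test with 2 older and 2 younger libraries and chemistry as a covariate, which leaves 1 residual degree of freedom, called no member of 7. None of 15458 genes passed (0%), and 1698 had an unadjusted p below 0.05. The log2 difference between older and 2-month libraries was 1.67 ± 0.21 (SE) for H2-Aa (adjusted p = 0.186), 1.47 ± 0.20 for H2-Ab1, 1.67 ± 0.22 for H2-Eb1 and 1.76 ± 0.24 for Cd74. H2-DMa differed by 1.35 ± 0.18, H2-DMb1 by 1.17 ± 0.17 and Ciita by 0.61 ± 0.39. DESeq2 on the same sums called 382 genes and 6 of the 7 members, all but Ciita, so the call depends on the tool.

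The libraries also differed in their share of immune-like cells. Immune-like cells made up 15.1% of kept cells in 18mo v2 (95% Clopper-Pearson interval 13.7% to 16.6%) against 6.38% in 2mo v2 (5.26% to 7.66%). They made up 19.0% in 12mo v3 (17.8% to 20.2%) against 12.5% in 2mo v3 (11.7% to 13.4%). Dendritic and Langerhans-like cells alone were 6.58% against 1.25% in v2 and 5.88% against 1.24% in v3. Macrophage-like cells were 1.40% against 0.477% in v2 and 10.2% against 9.76% in v3. Mixed-profile barcodes, which count in the immune-like share, were 6.17% against 4.29% in v2 and 1.82% against 1.11% in v3. With 1 library per age and chemistry these shares carry no test, and the gates and the mixing of sorted cells can set them.

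**Figure D2:**
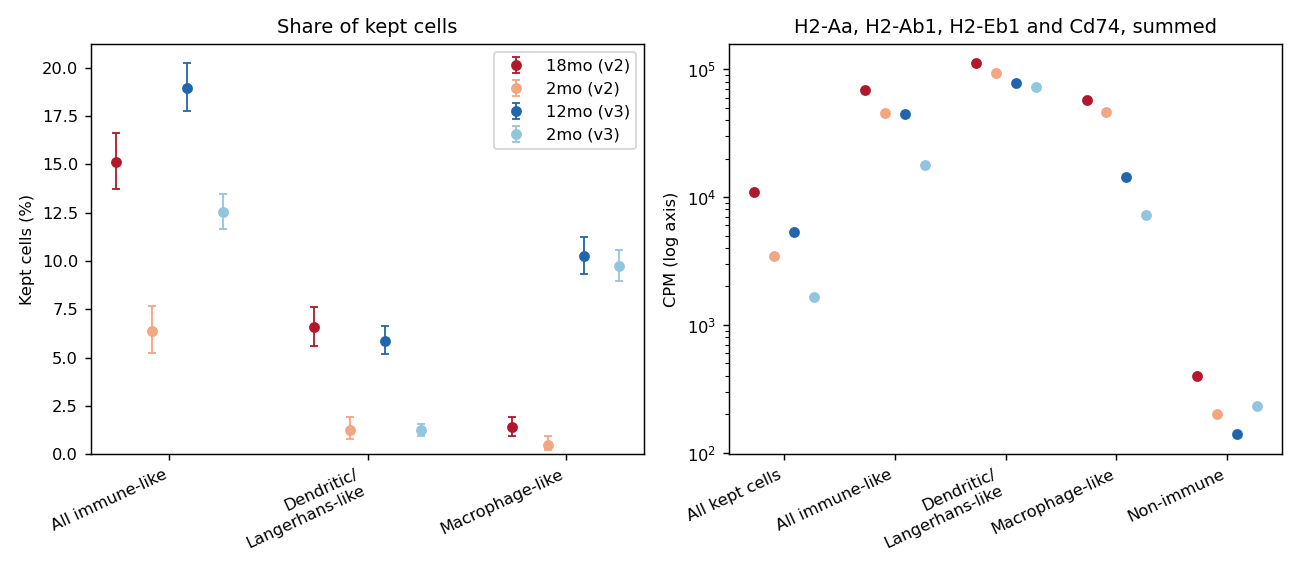
Left, percent of kept cells in immune-like, dendritic and Langerhans-like and macrophage-like classes per library with exact 95% bars; right, summed core CPM (logarithmic axis) over all kept cells and in each broad class. Older libraries lie above the 2-month library of their chemistry for all kept cells, and lie close to it in dendritic and Langerhans-like cells.

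Per class, the age difference in core RNA was small in dendritic and Langerhans-like cells. Their core level was 1.20 times that of 2mo v2 in 18mo v2 (counting interval 1.18 to 1.22) and 1.08 times that of 2mo v3 in 12mo v3 (1.07 to 1.09). In macrophage-like cells the ratio was 1.24 in v2, from 34 and 8 cells, and 1.98 in v3 (1.94 to 2.01), where the make-up of the class by subcluster differed as given above. Within the Cd93 subcluster of v3 the levels were 24288 CPM in 12mo v3 and 15047 CPM in 2mo v3, and within the Lyve1 subcluster 9132 and 2083 CPM. For all immune-like cells together, mixed-profile barcodes included, the ratios were 1.52 and 2.50.

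Summed over all immune-like clusters, mixed-profile barcodes included, no member of 7 passed, in a fit that called 163 of 11579 genes (1.41%). The log2 difference was 1.25 ± 0.27 for H2-Aa (adjusted p = 0.0607), 1.12 ± 0.26 for H2-Ab1 (0.0864), 1.26 ± 0.28 for H2-Eb1 (0.0707) and 1.34 ± 0.28 for Cd74 (0.0511). It was 1.06 ± 0.28 for H2-DMa (0.123), 1.15 ± 0.28 for H2-DMb1 (0.0898) and 0.12 ± 0.35 for Ciita (0.936). At an unadjusted p under 0.05, 6 of the 7 passed, all but Ciita. How many of the 11579 genes did so is not given here, so this count has no background beside it. The values sit at the edge of the threshold: 8 other settings called 4 to 6 members, DESeq2 among them with 5. The numbers of all genes called under those settings are not given here either. With library totals in place of TMM the median over all genes moved to -0.31, 121 of 293 called genes were higher instead of 135 of 163, and Ciita turned to -0.19. Of the 24 pathway genes 2 were higher in the older libraries, Irf4 by 1.81 (adjusted p = 0.0378) and the dendritic activation marker Cd83 by 1.52 (0.0268). Of 10 interferon gamma genes 1 was higher, Jak2 by 1.15 (0.0468), and of 12 class I genes none passed. Ctss had 0.68 (0.247), Ifi30 0.62 (0.324) and B2m 0.28 (0.718). RNA of Ifng itself was too scarce to be tested.

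Outside the leukocytes the core genes were found at low levels in every class, and a few barcodes held much of it. At least 10 core UMIs from at least 3 of the 4 genes were found in 35 of the non-immune cells of 18mo v2 (1.70%), 8 of 2mo v2 (0.510%), 10 of 12mo v3 (0.311%) and 49 of 2mo v3 (1.04%). These barcodes held 43.4%, 58.9%, 25.0% and 67.0% of all non-immune core UMIs. Among cells with no UMI of 12 leukocyte genes (Ptprc, Tyrobp and others) only 2, 0, 1 and 1 such cells remained. In basal keratinocyte-like cells, 1, 1, 1 and 2 cells in 18mo v2, 2mo v2, 12mo v3 and 2mo v3 held 23.8%, 98.3%, 89.8% and 94.2% of the class's core UMIs. In fibroblast-like cells of 2mo v3, 37 cells held 95.5%, and the leukocyte genes of that class summed to 884 CPM there against 48.8 CPM in 12mo v3.

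Age ratios of the non-immune core levels differed between the chemistries. Over all non-immune cells, core genes were 1.98 times as high in 18mo v2 as in 2mo v2 and 0.596 times as high in 12mo v3 as in 2mo v3, so the 2 chemistries went in opposite directions. With a marker gate per cell in place of clusters, the v3 ratio was 3.94 and the v2 ratio 7.003. In fibroblast-like cells the ratios were 1.31 and 0.115, while their leukocyte genes gave ratios of 1.70 and 0.0551. The class was made of different clusters at each age. A cluster with 3 fibroblast and 3 sheath markers held 194 cells in 18mo v2 against 297 in 2mo v2. In v3 it held 152 in 12mo v3 against 9 in 2mo v3. Another held 226 against 27 and 330 against 47. A further cluster, led by Sfrp4 and Inmt, held 32 against 20 and 28 against 161. There, H2-Ab1 read 680 CPM and the other 3 core genes 3492 CPM in 2mo v3, against 59.4 and 406 CPM in 12mo v3. In its 2mo v3 cells with no leukocyte UMI they read 16.1 and 35.5 CPM. Over non-immune cells edgeR called none of 6 members and none of 15057 genes (0%), and 1424 genes had an unadjusted p below 0.05. DESeq2 called 286 genes and none of the members. Fibroblast-like and suprabasal keratinocyte-like cells likewise gave no call among 11750 and 9159 genes (0% each), where 1157 and 491 had an unadjusted p below 0.05. DESeq2 called 141 and 7 genes there and no member.

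Papilla-like cells were different. Dermal papilla cells sit at the base of the follicle and signal to its epithelium, and here 19 papilla markers summed to between 13378 and 19667 CPM in them, against 989 to 1774 CPM in other non-immune cells. H2-Ab1 read 455 CPM in papilla-like cells of 18mo v2, 206 CPM in 2mo v2, 170 CPM in 12mo v3 and 139 CPM in 2mo v3, against 83.8, 47.8, 24.9 and 43.5 CPM in all other non-immune cells of the same libraries. H2-DMb1 read 85.6, 72.6, 53.3 and 43.3 CPM in papilla-like cells, against 26.0, 14.3, 19.9 and 15.4 CPM in the others. H2-DMa read 31.4, 26.8, 11.8 and 16.4 CPM, against 7.17, 4.56, 2.76 and 4.02 CPM. Within each library, all 3 genes were higher in the papilla-like cells, and over all libraries none of the 3 overlapped between the 2 kinds of cells. How many of all genes were likewise apart is not given here, and the test below called 43.8% of genes. The other chain of the same I-A molecule did not share this. H2-Aa read 66.6, 12.3, 20.8 and 13.7 CPM in papilla-like cells, against 65.5, 31.6, 23.5 and 42.6 CPM in the others. H2-Eb1 read 61.6, 22.6, 25.8 and 16.1 CPM against 53.4, 28.3, 20.5 and 40.0 CPM, and Cd74 read 121, 26.1, 50.5 and 33.5 CPM against 143, 78.7, 59.1 and 114 CPM. For these 3 the groups overlapped, and Ciita had 2, 0, 0 and 0 UMIs in papilla-like cells.

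The edgeR test with library as a block, a comparison added after these levels had been seen, called 3 members higher and 2 lower of 6 in papilla-like than in other non-immune cells. It called 43.8% of 14386 genes, so a call is common between these cells. H2-Ab1 was higher by 1.91 ± 0.21 (SE) on the log2 scale (adjusted p = 0.000297), H2-DMa by 1.86 ± 0.17 (9.47e-05) and H2-DMb1 by 1.40 ± 0.17 (0.000428). H2-Aa and Cd74 were lower, with -1.10 ± 0.32 (0.0253) and -1.28 ± 0.32 (0.0142), and H2-Eb1 did not pass, with -0.61 ± 0.28 (0.114). With library totals in place of TMM the median over all genes moved to 0.29, 4643 of 7189 called genes were higher instead of 2752 of 6294, and H2-Aa no longer passed. With no doublet removal H2-Ab1 was higher by 1.07 and H2-DMa by 0.98, and with the marker gate by 0.80 and 0.77, where H2-DMa did not pass (0.0805). When only cells with no leukocyte UMI entered on both sides, the lower calls were lost, and H2-Ab1 was higher by 2.95 ± 0.16 (1.56e-05), H2-DMa by 2.89 ± 0.27, H2-DMb1 by 1.505 ± 0.18 and H2-Eb1 by 0.74 ± 0.17. H2-Aa then gave -0.29 (0.290) and Cd74 0.03 (0.906).

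**Figure D3:**
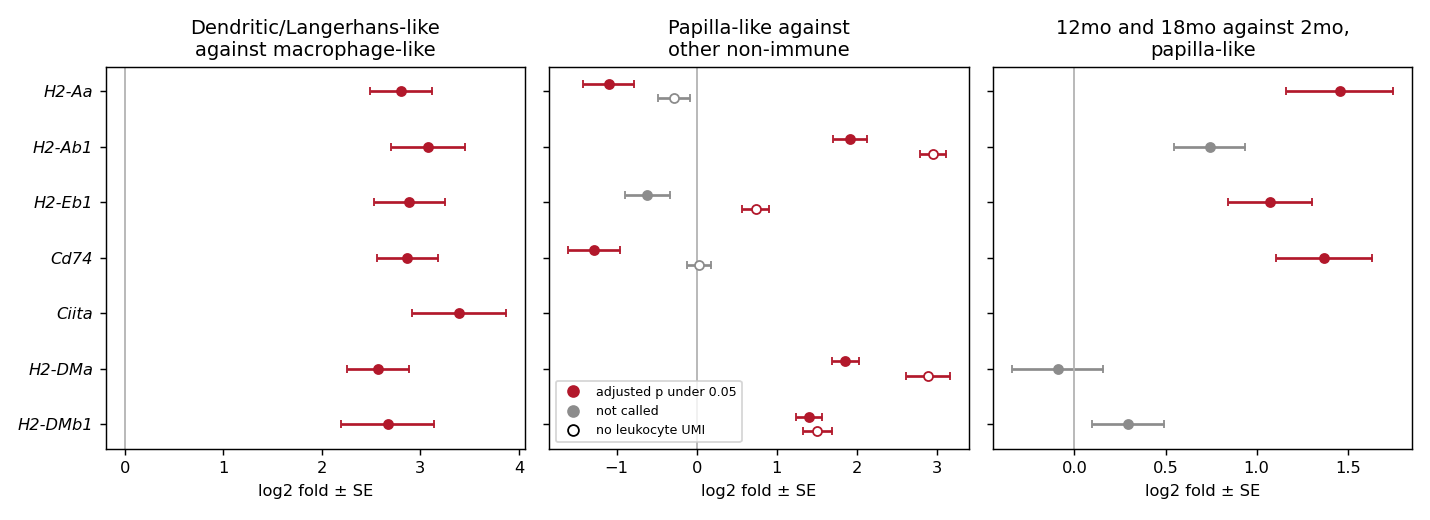
Log2 differences with SE for the members in 3 comparisons: dendritic and Langerhans-like against macrophage-like cells, papilla-like against other non-immune cells (filled, all cells; open, cells with no leukocyte UMI) and older against 2-month papilla-like cells; red marks an adjusted p under 0.05. H2-Ab1, H2-DMa and H2-DMb1 lie above 0 in papilla-like cells in both cell sets, and H2-Aa and Cd74 move to -0.29 and 0.03 once cells with leukocyte UMIs are left out.

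In number of cells the H2-Ab1 signal in papilla-like cells was broad. An H2-Ab1 UMI was found in 85.1% of papilla-like cells of 18mo v2, 58.2% of 2mo v2, 70.7% of 12mo v3 and 64.8% of 2mo v3, against 33.5%, 15.2%, 24.0% and 16.9% of other non-immune cells. After thinning every cell to 3000 UMIs the shares were 69.0%, 43.4%, 37.3% and 36.1%, against 16.7%, 5.61%, 6.09% and 5.01%. After thinning to 1000 UMIs they were 34.3%, 19.7%, 15.2% and 13.9%, against 7.26%, 2.00%, 2.18% and 1.98%. The 5 cells richest in H2-Ab1 held 6.54%, 7.69%, 6.59% and 4.06% of the H2-Ab1 UMIs of papilla-like cells, but 24.8%, 67.6%, 18.6% and 36.1% of those of the other non-immune cells. Among papilla-like cells with no leukocyte UMI, 83.3%, 57.2%, 69.1% and 62.6% held H2-Ab1, and 45.1%, 79.8%, 48.1% and 56.6% of these held no UMI of H2-Aa, H2-Eb1 or Cd74.

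The proportion between the core genes also differed in papilla-like cells. In immune-like cells there were 0.213 (18mo v2), 0.236 (2mo v2), 0.173 (12mo v3) and 0.205 (2mo v3) H2-Ab1 UMIs for each UMI of H2-Aa, H2-Eb1 and Cd74 together. Mixed-profile barcodes counted among the immune-like cells here. In papilla-like cells the ratio was 1.83, 3.38, 1.75 and 2.19, and in other non-immune cells 0.320, 0.345, 0.241 and 0.221. Papilla-like ratios were thus 8.57, 14.4, 10.1 and 10.7 times those of immune-like cells. The highest ratio in any other class was 1.20, in 22 sheath-like cells of 2mo v2, from 6 and 5 UMIs and with a counting interval of 0.305 to 4.97 that takes in the papilla-like ratios. H2-DMb1 gave 0.343, 1.19, 0.549 and 0.684 per such UMI in papilla-like cells, against 0.0116 to 0.0161 in immune-like cells. H2-DMa gave 0.126, 0.439, 0.121 and 0.259, against 0.0136 to 0.0241.

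**Figure D4:**
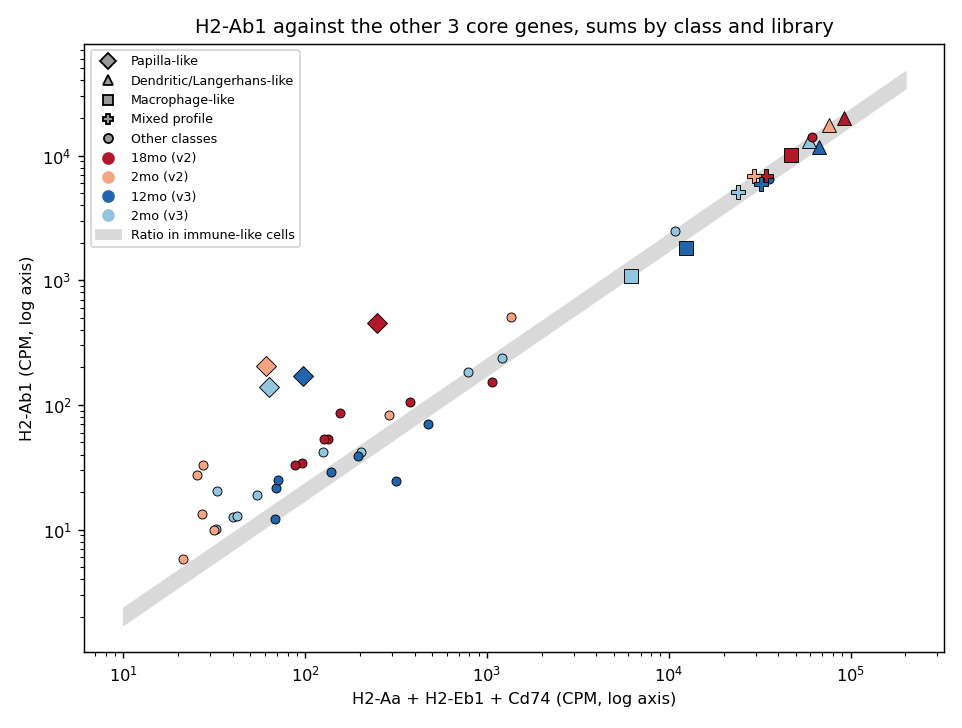
H2-Ab1 CPM against the summed CPM of H2-Aa, H2-Eb1 and Cd74 (both axes logarithmic), one point per class and library with at least 20 cells and 3 UMIs on each axis; the grey band is the range of ratios in immune-like cells. Points of most classes run along or just above the band, and the 4 papilla-like points lie far above it.

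In the edgeR fit of papilla-like against other non-immune cells, 2 of 12 leukocyte genes were lower (Cd52 -1.83 and Tyrobp -0.98) and none was higher, with a median of -0.79 beside -0.04 over all genes. On CPM the 12 genes summed to 83.1, 29.6, 39.3 and 54.1 CPM in papilla-like cells, against 67.0, 25.6, 37.6 and 133 CPM in other non-immune cells, with overlapping ranges, the lower sum in papilla-like cells of 2mo v3 only, and at most 2 of the 12 at 0. In papilla-like cells with no leukocyte UMI (293, 458, 262 and 695 cells) H2-Ab1 still read 423, 196, 173 and 144 CPM, against 54.4, 16.6, 19.95 and 13.2 CPM in the other non-immune cells chosen the same way. H2-DMb1 read 76.5, 75.5, 51.8 and 44.9 CPM against 23.6, 13.5, 19.5 and 13.5 CPM. The 14 macrophage markers summed to 3826, 2242, 1599 and 2169 CPM in papilla-like cells, against 937, 915, 710 and 865 CPM in the others. Apoe, which is on that list, gave 3763, 2229, 1541 and 2049 CPM of these sums, against 877, 902, 649 and 560 CPM. The complement gene C1qa, a defining macrophage marker, read 7.03, 4.58, 8.98 and 25.8 CPM in papilla-like cells, against 3.91, 0.911, 6.39 and 55.9 CPM. The 20 dendritic markers summed to 337, 202, 191 and 203 CPM, against 180, 114, 110 and 114 CPM. Cd83, which is on that list, gave 145, 59.2, 35.9 and 57.9 CPM of these sums in papilla-like cells, against 5.21, 1.57, 2.37 and 4.29 CPM. Flt3, a defining dendritic marker, had no UMI in papilla-like cells of any library, and Itgax read 0.827, 0, 0 and 0 CPM.

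**Figure D5:**
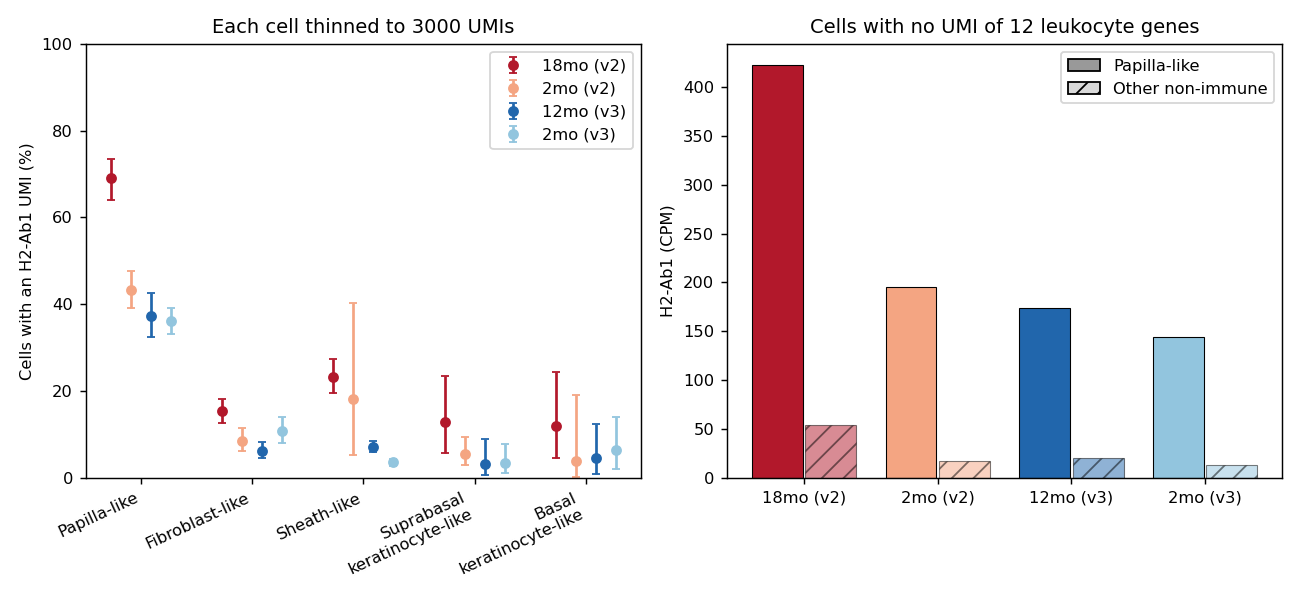
Left, percent of cells with an H2-Ab1 UMI after thinning to 3000 UMIs in 5 non-immune classes per library, with exact 95% bars; right, H2-Ab1 CPM in cells with no UMI of 12 leukocyte genes, papilla-like beside other non-immune cells. Every papilla-like value lies above the value of the other non-immune cells of its library.

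Set against papilla-like cells one class at a time, H2-Ab1 was lower in 7 of 9 classes: dermal sheath-like (log2 difference -2.51 ± 0.64, SE), pericyte and vascular smooth muscle-like (-3.23 ± 0.81), arrector pili-like (-4.14), endothelium-like (-2.90), suprabasal keratinocyte-like (-2.20), hair shaft and inner root sheath-like (-3.21) and cycling cells (-2.07). It did not pass in fibroblast-like (-0.81, adjusted p = 0.297) and basal keratinocyte-like cells (0.21). H2-Ab1 read 507 CPM in basal keratinocyte-like cells of 2mo v2, 183 CPM in those of 2mo v3 and 238 CPM in fibroblast-like cells of 2mo v3. All 3 values lay above the papilla-like level of the same library. In these 3 groups 1, 2 and 37 cells held 98.3%, 94.2% and 95.5% of the core UMIs. With no leukocyte UMI, basal keratinocyte-like cells read 12.6 (2mo v2) and 5.34 CPM (2mo v3), against 196 and 144 CPM in papilla-like cells. H2-DMb1 was lower in all 9. Of the member and class pairs tested, 27 passed in all. H2-Aa, H2-Eb1 and Cd74 were higher than in papilla-like cells in fibroblast-like cells (2.60, 1.94 and 2.67) and in basal keratinocyte-like cells (2.65, 2.75 and 3.89), and the other calls were lower. The fits called 31.2% (sheath), 31.5% (endothelium), 34.9% (pericyte), 38.2% (cycling), 38.4% (fibroblast), 38.9% (arrector pili), 52.4% (basal keratinocyte), 54.8% (hair shaft) and 69% (suprabasal, where 31.8% were called higher and 37.2% lower) of 12753 genes. The sheath-like class, named for the mesenchyme around the follicle, held 1 cluster led by Smoc1 and Slc26a7 that had as many papilla as sheath markers (3 each), and clusters led by these genes were named papilla at resolution 1 and with no doublet removal. Here its cells counted among the other non-immune cells. It had 0.706 (18mo v2), 0.540 (12mo v3) and 0.402 (2mo v3) H2-Ab1 UMIs per UMI of the other 3 core genes, with H2-Ab1 at 125, 44.7 and 18.3 CPM. The other sheath-like clusters had ratios of 0.393 and 0.341 in 18mo v2, 0.251 in 12mo v3 and 0.393 and 0.287 in 2mo v3. By this ratio the Smoc1 cluster did not stand apart in 2mo v3. Its H2-DMb1 read 59.5, 36.1 and 33.2 CPM in 18mo v2, 12mo v3 and 2mo v3. In the other sheath-like clusters H2-DMb1 read 11.5 and 30.2, 22.6, and 8.18 and 12.8 CPM in the same libraries. The fibroblast-like cluster with 3 sheath markers had 30.0 (18mo v2), 41.5 (2mo v2) and 20.1 CPM (12mo v3) of H2-DMb1.

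Beside 19.1% of all genes called higher and 24.6% called lower in that fit, 3 of 19 measured pathway genes were higher in papilla-like than in other non-immune cells, a share near that of all genes: Cd83 by 4.03 ± 0.25, Irf8, a transcription factor of myeloid cells, by 2.72 and Rfxank, a subunit of the factor that binds the X box, by 0.80. Irf8 read 31.4, 7.75, 38.7 and 8.45 CPM in papilla-like cells, against 3.98, 0.911, 2.05 and 2.34 CPM. Irf8 and Cd83 were higher in papilla-like cells of all 4 libraries. The proteases and reductase that serve class II loading were not called higher: Lgmn and Ifi30 were lower by -1.26 and -1.16, and Ctss gave -0.37 (adjusted p = 0.450). Of 10 interferon gamma genes 1 was higher (Jak2, 1.08) and 5 were lower (Cxcl9 -4.99, Gbp2 -2.32, Cxcl10 -2.11, Ifngr2 -0.56 and Jak1 -0.45). Of 12 class I genes none was higher and 5 were lower, among them H2-T23 with -1.99, H2-K1 with -0.59 and B2m with -0.47.

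Between ages, papilla-like cells had more core RNA in the older library of both chemistries. H2-Ab1 was 2.21 times as high in 18mo v2 as in 2mo v2 (counting interval 2.00 to 2.44) and 1.23 times as high in 12mo v3 as in 2mo v3 (1.11 to 1.35). H2-Aa, H2-Eb1 and Cd74 summed to 249 CPM in 18mo v2 against 61.0 CPM in 2mo v2, a ratio of 4.09 (3.45 to 4.87). In v3 they summed to 97.1 CPM in 12mo v3 against 63.3 CPM in 2mo v3, a ratio of 1.53 (1.34 to 1.75). The 5 cells richest in these 3 genes held 37.6% (18mo v2), 30.1% (2mo v2), 6.65% (12mo v3) and 15.7% (2mo v3) of their UMIs. In cells with no leukocyte UMI the 3 genes read 135 against 45.4 CPM in v2 and 94.9 against 57.0 CPM in v3. Leukocyte genes gave ratios of 2.81 and 0.726, so in v2 they moved with the core genes and in v3 they did not. Their part in the v2 difference was not tested. H2-DMb1 gave 1.18 and 1.23.

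In the edgeR fit with chemistry as covariate, 3 of 6 members were higher in older papilla-like cells, beside 1.57% of 11360 genes called, 1.11% higher and 0.458% lower. H2-Aa differed by 1.46 ± 0.29 (SE, adjusted p = 0.00744), Cd74 by 1.37 ± 0.26 (0.00446) and H2-Eb1 by 1.07 ± 0.23 (0.0121). H2-Ab1 did not pass, with 0.74 ± 0.19 (0.0569), nor did H2-DMb1 with 0.30 or H2-DMa with -0.09. These calls are fragile: DESeq2 kept 1, a fit without the chemistry term 0 and fits that left out 1 library 0 or 1. In v2 the papilla-like cells of the 2 ages fell in different clusters, 355 of 397 in 1 cluster in 18mo v2 and 516 of 519 in another in 2mo v2, each almost all of 1 library. In v3 both ages fell in the same cluster (365 of 369 and 1059 of 1071 cells), where H2-Ab1 read 169 CPM in 12mo v3 and 138 CPM in 2mo v3 and the other 3 core genes 96.1 and 55.2 CPM. Irf8 (2.17), the interferon-responsive factor Irf1 (1.22, adjusted p = 0.00176) and the class I gene H2-D1 (0.80, 0.0290) were the only genes called among 15 pathway, 9 interferon gamma and 11 class I genes measured, all higher in older cells.

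Some barcodes carried leukocyte and mesenchymal genes together. Among immune-like clusters, 2 subclusters were named from sheath markers (100, 36, 56 and 38 cells in 18mo v2, 2mo v2, 12mo v3 and 2mo v3) and from papilla markers (50, 36, 16 and 22 cells). The top gene of the first was Tnn, a fibroblast marker. In it the fibroblast markers summed to 11860, 11489, 4557 and 10135 CPM, against 5422, 3309, 4008 and 5801 CPM for the sheath markers, and the lists differ in length. Core genes of the 2 subclusters together summed to 41098, 36260, 38214 and 29181 CPM. That lies between macrophage-like and non-immune levels in v2, and above the macrophage-like level in v3. The Scrublet caller marked only 11, 7, 2 and 5 barcodes in the libraries, too few to have worked, so doublets can remain in the data, and whether these barcodes are doublets was not tested.

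The genes whose levels ran most like the summed core genes across 36 sums of a class and library were Cd52 (Pearson r of log2 levels 0.975), Gpr132 (0.971), Cd86 (0.962), Irf4 (0.962), Cd209a (0.960), Coro1a (0.960), Ctss (0.959), Tyrobp (0.958), Myo1g (0.957) and Lyz2 (0.954), out of 7185 genes. Across the 27 non-immune sums alone, an addition made after the levels had been seen, the genes most like H2-Ab1 out of 6626 were Gdf10 (0.865), Cd83 (0.863), Sfrp1 (0.821), H2-Eb1 (0.786), H2-DMb1 (0.780), Trf (0.768), Mex3c (0.767), Sfrp2 (0.752), Pgd (0.744) and Cblb (0.737). Over those sums H2-Ab1 followed the total of H2-Aa, H2-Eb1 and Cd74 with r = 0.734, H2-DMa with 0.658 and H2-DMb1 with 0.427, and sums of 1 library share its depth and its free RNA.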

How the data were processed

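The matrices deposited by the authors hold raw UMI counts, whole numbers for every gene in every barcode, made with STAR, Cell Ranger 2.0.1 and Seurat 2.1.0 on builds mm10 and GRCm38.p5, per the submitters' processing notes, which give no roles. Per the file headers the v3 matrices come from software version 3.0.1. How barcodes were called is not given in the sources used here.

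Barcodes with at least 500 genes, 1000 UMIs and under 10% mitochondrial UMIs were kept. Scrublet's own calls were too few to use, so the 3% with the highest scores were removed per library. Joint clustering used scanpy 1.11.5 (with Python 3.11.15, scikit-learn 1.9.0 and igraph 0.11.9), and was built over all 4 libraries from 2000 variable genes without MHC class II genes, 30 components, 15 neighbours and Leiden resolution 0.5. A cluster was called X-like when at least 3 markers of X were among its top 100 genes, at least 1.5-fold up and in at least 20% of its cells, and immune-like clusters were split once more.

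Counts were summed per library and class and tested with edgeR 4.0.16 (R 4.3.3, limma 3.58.1): quasi-likelihood F-test, TMM, filterByExpr, two-sided, Benjamini-Hochberg over all genes tested. Age fits had chemistry as covariate and classes of at least 50 cells per library; class fits had the library as block and classes of at least 20 cells. SE is the log2 difference divided by the square root of F. DESeq2 1.42.0 was an alternative. Intervals are exact Poisson or Clopper-Pearson at 95% (scipy 1.17.1) and cover counting error only. The tests were tried on simulated counts. Other settings were other scaling, filters, doublet handling, clustering or a marker gate per cell, and leaving out each library.

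The text names all 7 members, genes of 3 lists (class II pathway, 25 of 28 listed symbols found; interferon gamma, 11; class I, 12) that passed or that serve the members directly, and the 10 genes most like the core genes. The members and lists were chosen with earlier results of these data known. The result of 1 gene of the interferon gamma list is not reported here.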

Additional observations from a re-analysis of the deposited data

Results flagged for a closer look

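In 3 kinds of cells the age ratio of a class II level went up in one chemistry and down in the other. Each ratio is 1 library over 1 library, so the difference between chemistries was not tested. Chemistry, the labelled reporter, sex as read from Xist RNA and the older age (18 or 12 months) changed together. H2-Ab1 in dendritic and Langerhans-like cells was 1.14 times as high in 18mo v2 as in 2mo v2 and 0.902 times as high in 12mo v3 as in 2mo v3. In fibroblast-like cells, the ratios were 1.31 and 0.115 for the summed core genes and 1.28 and 0.122 for H2-Ab1. Over all non-immune cells, they were 1.98 and 0.596 for the summed core genes and 1.79 and 0.605 for H2-Ab1. In 2mo v3, 37 fibroblast-like cells held 95.5% of the core UMIs of their class.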

How the results depend on the processing

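Counts of members called depended on the tool and the setting. The numbers of all genes called under these settings are mostly not given here, so most of these counts have no background beside them. Over all kept cells DESeq2 called 6, against 0 with edgeR. Over immune-like cells, where edgeR called 0, the count was 1 with DESeq2's size factors, 4 with the top 10% of doublet scores removed and without mixed-profile barcodes, 5 with DESeq2, at resolution 1, with no doublet removal and without shared barcodes, and 6 with no filter and with the marker gate. In papilla-like cells the 3 calls became 1 with DESeq2 and 0 with no chemistry covariate or with 12 months counted as young; leaving out 1 library gave 0 to 1, with 0 without 18mo v2, 2mo v2 or 2mo v3 and 1 without 12mo v3. Papilla-like against other non-immune cells gave 3 calls with the top 10% of doublet scores removed, against 5. The classes against papilla-like cells gave 12 with the marker gate, against 27. The 7 calls between dendritic and Langerhans-like and macrophage-like cells ran from 5 (without 12mo v3) to 7 when 1 library was left out.

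The summed core ratio over all kept cells was 2.97 (TMM), 3.14 (looser cell filter), 3.15 (no doublet removal) and 3.46 (top 10% removed) in v2, against 3.19, and 3.44 (TMM), 3.29 (no doublet removal) and 3.74 (top 10% removed) in v3, against 3.22. For immune-like cells it was 1.90 (TMM), 1.56 (no doublet removal) and 2.13 (marker gate) in v2, against 1.52, and 3.08 (TMM), 2.56 (looser filter), 2.79 (top 10% removed), 2.72 (marker gate) and 2.48 (without shared barcodes) in v3, against 2.50. For non-immune cells it was 1.78 (TMM), 2.24 (looser filter), 3.12 (no doublet removal), 2.27 (top 10% removed) and 7.003 (marker gate) in v2, against 1.98. In v3, against 0.596, it was 0.633 (TMM), 0.935 (no doublet removal), 0.829 (top 10% removed), 0.534 (without shared barcodes) and, in the other direction, 3.94 (marker gate); the cause was not tested.

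The immune-like share was 12.9% (top 10% removed) and 12.96% (marker gate) in 18mo v2, 4.88% and 7.69% in 2mo v2, and with the marker gate 14.8% in 12mo v3 and 11.4% in 2mo v3. The share of non-immune cells with at least 10 core UMIs was 2.51% (no doublet removal), 3.52% (marker gate) and 0.126% (no leukocyte UMI) in 18mo v2 and 0% in 2mo v2 with no leukocyte UMI. It was 0.855%, 2.09% and 0.0460% in 12mo v3 under the first 3 settings, and 0.732% (top 10% removed) and 0.0350% (no leukocyte UMI) in 2mo v3.

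Members that changed sign were mostly near 0. Ciita between ages in immune-like cells (0.12) became -0.0895 with 12 months counted as young, -0.19 with library totals only and -0.45 to 0.37 when 1 library was left out, below 0 without 2mo v2 or 12mo v3. H2-DMa between ages in papilla-like cells (-0.09) became 0.0116 (no chemistry covariate), 0.19 (12 months as young), 0.25 (marker gate) and -0.81 to 0.55 when 1 library was left out, above 0 without 2mo v2 or 12mo v3. H2-DMb1 there (0.30) ran from -0.0685 to 0.72 when 1 library was left out, below 0 without 18mo v2 or 2mo v3. Between papilla-like and other non-immune cells with no leukocyte UMI, H2-Eb1 became 0.74, against -0.61 in all cells, and Cd74 0.0265, against -1.28. Pairing by replicate number was not possible, because the age groups share fewer than 2 such numbers. The pairing used was by chemistry: the covariate sets each older library against the 2-month library of its chemistry. Depth limits Ciita most, with 9 to 70 UMIs per library.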
